A study of Mus musculus with 9 samples.

Results

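The genes described here are 41 interferon-stimulated genes, taken by symbol from the authors' deposited table of 23285 genes, where each of the 41 has a row in all 3 comparisons. The table comes from RNA sequencing of immature erythroid cells sorted from the bone marrow of C57BL/6 mice in which Trim28, the gene of a transcriptional corepressor, is floxed in all 3 groups. FFa, the control, was TRIM28(flox/flox) without Cre and sorted as CD71(hi)TER119+. KOa was TRIM28(flox/flox):Mx1Cre, sorted through the same gate and labelled modestly deleted. KOb was TRIM28(flox/flox):Mx1Cre as well, but sorted as CD71(hi)TER119- and labelled severely deleted. Each group held 3 libraries. The table gives 1 FPKM value (fragments per kilobase of transcript and per unit of library size) for each gene and group, so no value carries an SD.

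Interferon-stimulated genes are switched on when interferon binds its receptor and activates JAK kinases and STAT proteins. A complex that includes STAT2 and IRF9 then binds the interferon-stimulated response element (ISRE) in promoters, and a separate element, GAS, serves type II interferon. The induced proteins sense foreign RNA and DNA, degrade or sequester viral RNA, block viral entry and damp the response again. Interferon is also part of the design, because the Mx1Cre transgene drives its recombinase from the interferon-inducible promoter of Mx1, and poly(I:C), a double-stranded RNA mimic, raises interferon. Such deletion is not limited to erythroid cells. Mutant mice were analysed 2 weeks after 5 injections of poly(I:C). The labels do not say whether FFa mice received poly(I:C), how old the mice were or whether each library is a separate mouse. Cre and the deletion differ together between FFa and the mutants, and for KOb the gate differs from that of FFa as well. Between KOb and KOa the gate and the degree of deletion differ together. Within each comparison these cannot be told apart.

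The deleted gene followed the labels, with Trim28 at 26.0, 6.64 and 4.76 FPKM in FFa, KOa and KOb, the order used throughout. All 11 erythroid markers read from the table were above 0 in every group. Leukocyte markers were present as well, none of them listed at 0, and most calls among them (defined below) were falls. Among all tested genes, 7.99% rose and 14.1% fell in KOa, and 12.8% rose and 15.2% fell in KOb. These shares apply to each count that follows. Erythroid markers fell in 1 of 11 in KOa and in 4 of 11 in KOb, and none rose. Their log2 ratios were below 0 in 5 of 11 in KOa and in 11 of 11 in KOb, where the gate differs from that of FFa. B cell markers fell in 11 of 11 tested in both mutants, and their sum was 309.7, 46.2 and 37.5 FPKM. Dendritic cell markers fell in 5 of 8 and 5 of 9 (sum 15.4, 4.33 and 3.86), monocyte and macrophage markers in 8 of 14 and 14 of 14 (160.4, 112.6 and 70.2), and granulocyte markers in 6 of 12 and 8 of 12 (49263, 16786 and 13611, led by S100a8). Of the 12 granulocyte markers, 3 had a log2 ratio above 0 in each mutant, and 1 of these was called. It was the granulocyte precursor marker Mpo, at 8.15, 21.7 and 27.3 FPKM, which rose in both mutants. T and NK cell markers fell in 2 of 10 and 5 of 9, while 1 of them, Nkg7, rose in both (sum 22.8, 18.0 and 16.7). Megakaryocyte markers went both ways: 3 of 6 rose in each mutant (sum 38.6, 69.8 and 56.3), while Gp1bb fell in both and Vwf in KOb. Mpo, Nkg7, Gp1bb and Vwf are named because they went against their lists and were chosen after their values were seen. In bulk samples, fewer cells of a type and less RNA per cell cannot be told apart.

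The response elements were looked up in promoters from RefSeq (GRCm38.p6), which span 250 bases before to 50 after a start site and matched 30 of the 41 genes by symbol. The ISRE core was searched as GAAA, any 2 bases, then GAAA, and the GAS core as TTCNNNGAA, on both strands. The ISRE core was found for 18 of the 30 genes (60.0%), against 1079 of 27025 genes of the whole promoter table (3.99%). The GAS core was found for 7 of 30 (23.3%), against 2582 of 27025 (9.55%), and in Ifitm3 and Bst2 matches of both motifs overlapped. Genes without an entry were Dhx58, Zbp1, Ifi204, Usp18, Oas2, Mx1, Mx2, Parp9, Parp14, Ifi27l2a and Rtp4. A match is a run of letters and not a measured binding site. Genes called in at least 1 comparison (defined below) held the ISRE core in 6 of 11, and genes called in none held it in 12 of 19.

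Promoters are printed for 5 genes that differed from the control in both mutants, and for Ifitm2 and Ifi35 as genes of high level that were not called. Capitals mark every match to the ISRE core on either strand, and each sequence reads 5′ to 3′ along its gene.
Ifitm3 promoter, lower in both mutants (chr7:141010695-141010994, minus strand): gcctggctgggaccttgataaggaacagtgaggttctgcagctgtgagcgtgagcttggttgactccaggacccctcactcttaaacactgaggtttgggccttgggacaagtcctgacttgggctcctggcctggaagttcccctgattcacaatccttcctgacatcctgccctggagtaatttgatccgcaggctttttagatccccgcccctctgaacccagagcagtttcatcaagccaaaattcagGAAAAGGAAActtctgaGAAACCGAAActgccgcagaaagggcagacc
Mndal promoter, lower in both mutants (chr1:173880138-173880437, minus strand): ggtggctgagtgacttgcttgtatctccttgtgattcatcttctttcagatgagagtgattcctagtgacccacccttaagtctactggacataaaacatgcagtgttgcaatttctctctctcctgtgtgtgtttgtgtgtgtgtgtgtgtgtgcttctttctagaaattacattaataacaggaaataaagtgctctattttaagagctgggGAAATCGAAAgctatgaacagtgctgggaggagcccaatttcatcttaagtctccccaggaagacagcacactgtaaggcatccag
Ifih1 promoter, lower in both mutants (chr2:62646206-62646505, minus strand): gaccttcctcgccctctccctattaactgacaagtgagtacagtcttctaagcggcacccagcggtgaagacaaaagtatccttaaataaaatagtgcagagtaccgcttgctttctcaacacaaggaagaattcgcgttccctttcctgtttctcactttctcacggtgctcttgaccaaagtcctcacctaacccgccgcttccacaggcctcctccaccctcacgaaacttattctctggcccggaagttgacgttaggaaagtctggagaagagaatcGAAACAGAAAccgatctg
Ifitm1 promoter, higher in both mutants (chr7:140967826-140968125, plus strand): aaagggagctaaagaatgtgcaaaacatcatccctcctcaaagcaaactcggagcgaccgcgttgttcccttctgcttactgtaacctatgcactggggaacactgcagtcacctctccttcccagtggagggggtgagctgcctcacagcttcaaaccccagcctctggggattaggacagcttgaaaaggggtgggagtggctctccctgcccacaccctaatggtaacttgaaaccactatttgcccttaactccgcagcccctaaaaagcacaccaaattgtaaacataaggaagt
Isg15 promoter, higher in both mutants (chr4:156200769-156201068, minus strand): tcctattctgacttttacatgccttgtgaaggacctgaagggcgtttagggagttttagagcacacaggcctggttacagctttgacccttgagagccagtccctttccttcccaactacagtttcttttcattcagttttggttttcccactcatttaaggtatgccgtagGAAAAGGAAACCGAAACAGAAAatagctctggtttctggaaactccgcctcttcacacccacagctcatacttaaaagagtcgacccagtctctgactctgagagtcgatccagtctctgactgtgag
Ifitm2 promoter, not called (chr7:140955912-140956211, minus strand): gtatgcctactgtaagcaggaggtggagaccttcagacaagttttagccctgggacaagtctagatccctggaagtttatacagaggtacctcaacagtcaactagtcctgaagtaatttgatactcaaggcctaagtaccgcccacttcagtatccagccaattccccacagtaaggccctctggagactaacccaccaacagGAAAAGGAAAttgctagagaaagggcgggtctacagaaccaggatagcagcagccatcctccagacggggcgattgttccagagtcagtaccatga
Ifi35 promoter, not called (chr11:101448162-101448461, plus strand): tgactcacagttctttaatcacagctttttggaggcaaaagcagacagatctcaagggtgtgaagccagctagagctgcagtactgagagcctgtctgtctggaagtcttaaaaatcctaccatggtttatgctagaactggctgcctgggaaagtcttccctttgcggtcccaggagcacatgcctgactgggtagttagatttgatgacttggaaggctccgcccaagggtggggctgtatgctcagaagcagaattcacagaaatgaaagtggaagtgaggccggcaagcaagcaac
Isg15 holds 3 overlapping matches between 78 and 57 bases upstream of its start site. Ifitm3 has 2 matches just inside the transcript, at bases 2 to 11 and 19 to 28 after the start. Mndal has 1 match in each of its 2 windows, of which the one at the start site of the deposited locus is shown. Neither Ifitm1 nor Ifi35 held a match to the ISRE core in the window shown, while Ifi35 held 1 match to the GAS core. For Ifitm1 that window begins at base 140967826, after the deposited start of its locus at 140967429, so the deposited start itself was not searched.

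**Figure D1:**
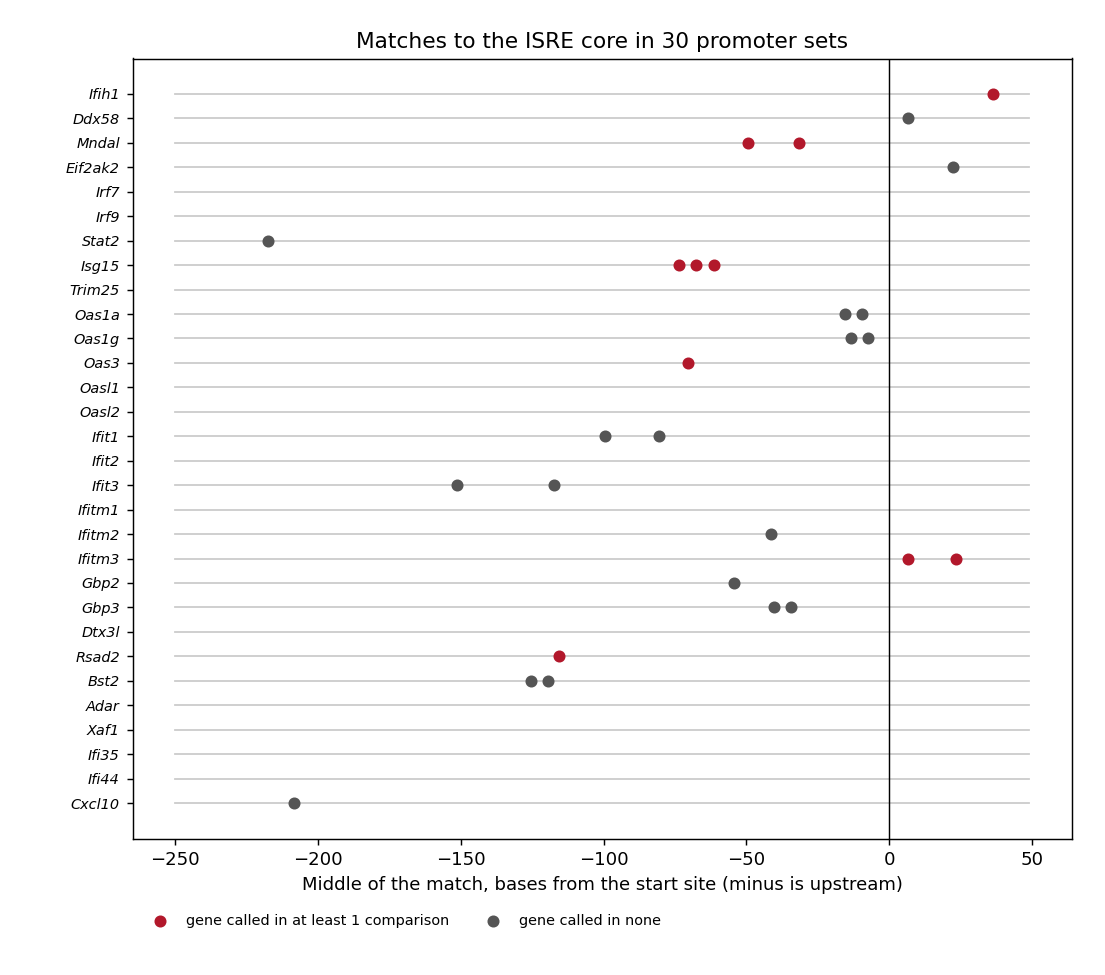
Positions of matches to the ISRE core for the 30 genes with a promoter entry, in bases from the start site (minus is upstream); each point is 1 match, coloured by whether its gene was called in at least 1 comparison or in none, with all windows of a gene on 1 line. The 3 matches of Isg15 lie together upstream, the 2 of Ifitm3 lie downstream of the start, and 12 of the 30 genes show no match.

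The 41 genes covered a wide range of levels in these erythroid cells, and no gene was listed at 0. FPKM ran from 0.0882 to 243.8 in FFa, from 0.133 to 210.9 in KOa and from 0.0490 to 157.7 in KOb. Genes with an FPKM of at least 1 numbered 29, 29 and 28. Rsad2, Isg15 and Ifitm3 alone made up 69.8%, 72.3% and 67.7% of the summed level. Below 1 FPKM in every group were 11 genes, among them the classical interferon-induced genes Mx1, Mx2, Ifit2, Ifit3, Ifi44, Oas1a and Gbp2.

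**Figure D2:**
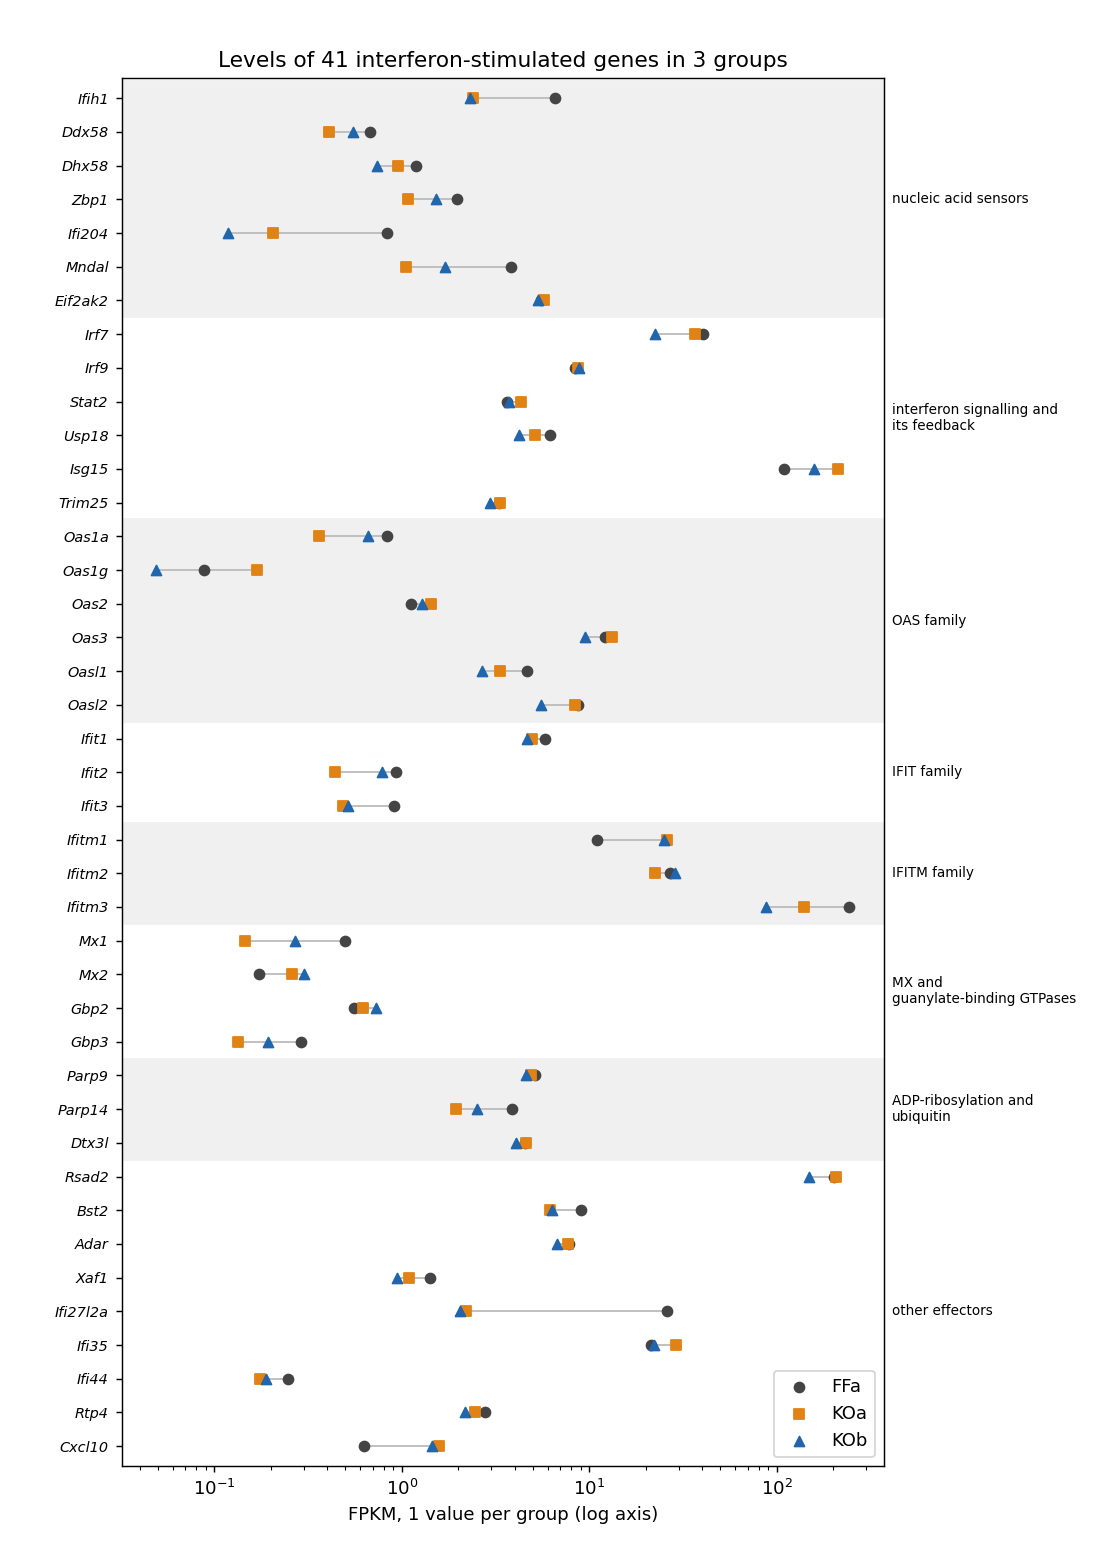
FPKM of the 41 interferon-stimulated genes on a log axis, 1 value per group with no error bars, marked by group and shaded in bands by role. Rsad2, Isg15 and Ifitm3 are the highest genes, and Ifi27l2a shows the widest gap between groups, from 25.9 in FFa to 2.21 in KOa and 2.05 in KOb.

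The first comparison, of KOa with FFa, is between cells of 1 gate. A gene counts as called, and is said to rise or fall, when its test was completed and its q in the authors' deposited table, made with Cuffdiff, is below 0.05. In KOa, 2 of 37 tested genes rose (5.41%, against 7.99% of all tested genes) and 7 fell (18.9%, against 14.1%). In KOb against FFa, 2 of 37 rose (5.41%, against 12.8%) and 9 fell (24.3%, against 15.2%). In KOb against KOa, 5 of 35 fell (14.3%, against 6.19%) and 0 rose (against 10.0%) by Cuffdiff. Again 0 rose (against 1.91%) when its statistic was taken as standard normal. At an unadjusted p below 0.05 by Cuffdiff, 2 rose, against 1735 of 10468 tested genes in all.

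The median log2 ratio of the tested genes was -0.23 in KOa, -0.35 in KOb and -0.13 between the mutants, beside -0.08, -0.01 and 0.04 over all tested genes. Median-centred scaling, on genes of at least 1 FPKM in both groups, left the medians of the 41 genes at -0.18 in KOa and -0.37 in KOb. Scaling the groups to equal sums of non-globin genes adds 0.54 in KOa and 0.51 in KOb to every log2 ratio and turned these medians to 0.30 and 0.16. It moves the median of all tested genes by the same constant, so the distance to that median does not change. All 25 calls of the 41 genes kept their direction, but they were not retested. The falls against FFa shrank, in KOb to -0.13 for Parp14 and -0.16 for Oasl2, each smaller than its standard error (0.32 and 0.31). The rises of Isg15 and Ifitm1 grew. Isg15 and Ifitm1 rose in both mutants, and Ifih1, Ifi204, Mndal, Ifitm3, Parp14 and Ifi27l2a fell in both. Both comparisons share the 3 control libraries. Called in no comparison were 27 genes, of which 18 reached 1 FPKM in a group.

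The error after ± is a standard error, obtained by dividing each log2 ratio by its deposited statistic. The deposited p stops at 5e-05, so for the largest statistics, such as those of Ifi27l2a, a standard normal gives a smaller p. With the statistic taken as standard normal, 12 of the 25 calls passed and 13 did not. For those 13 the deposited p is the smaller one. Lost were all calls of Ifi204, Ifit2, Irf7, Oasl1, Oasl2, Oas3 and Rsad2, and those of Isg15, Mndal and Parp14 in KOb.

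**Figure D3:**
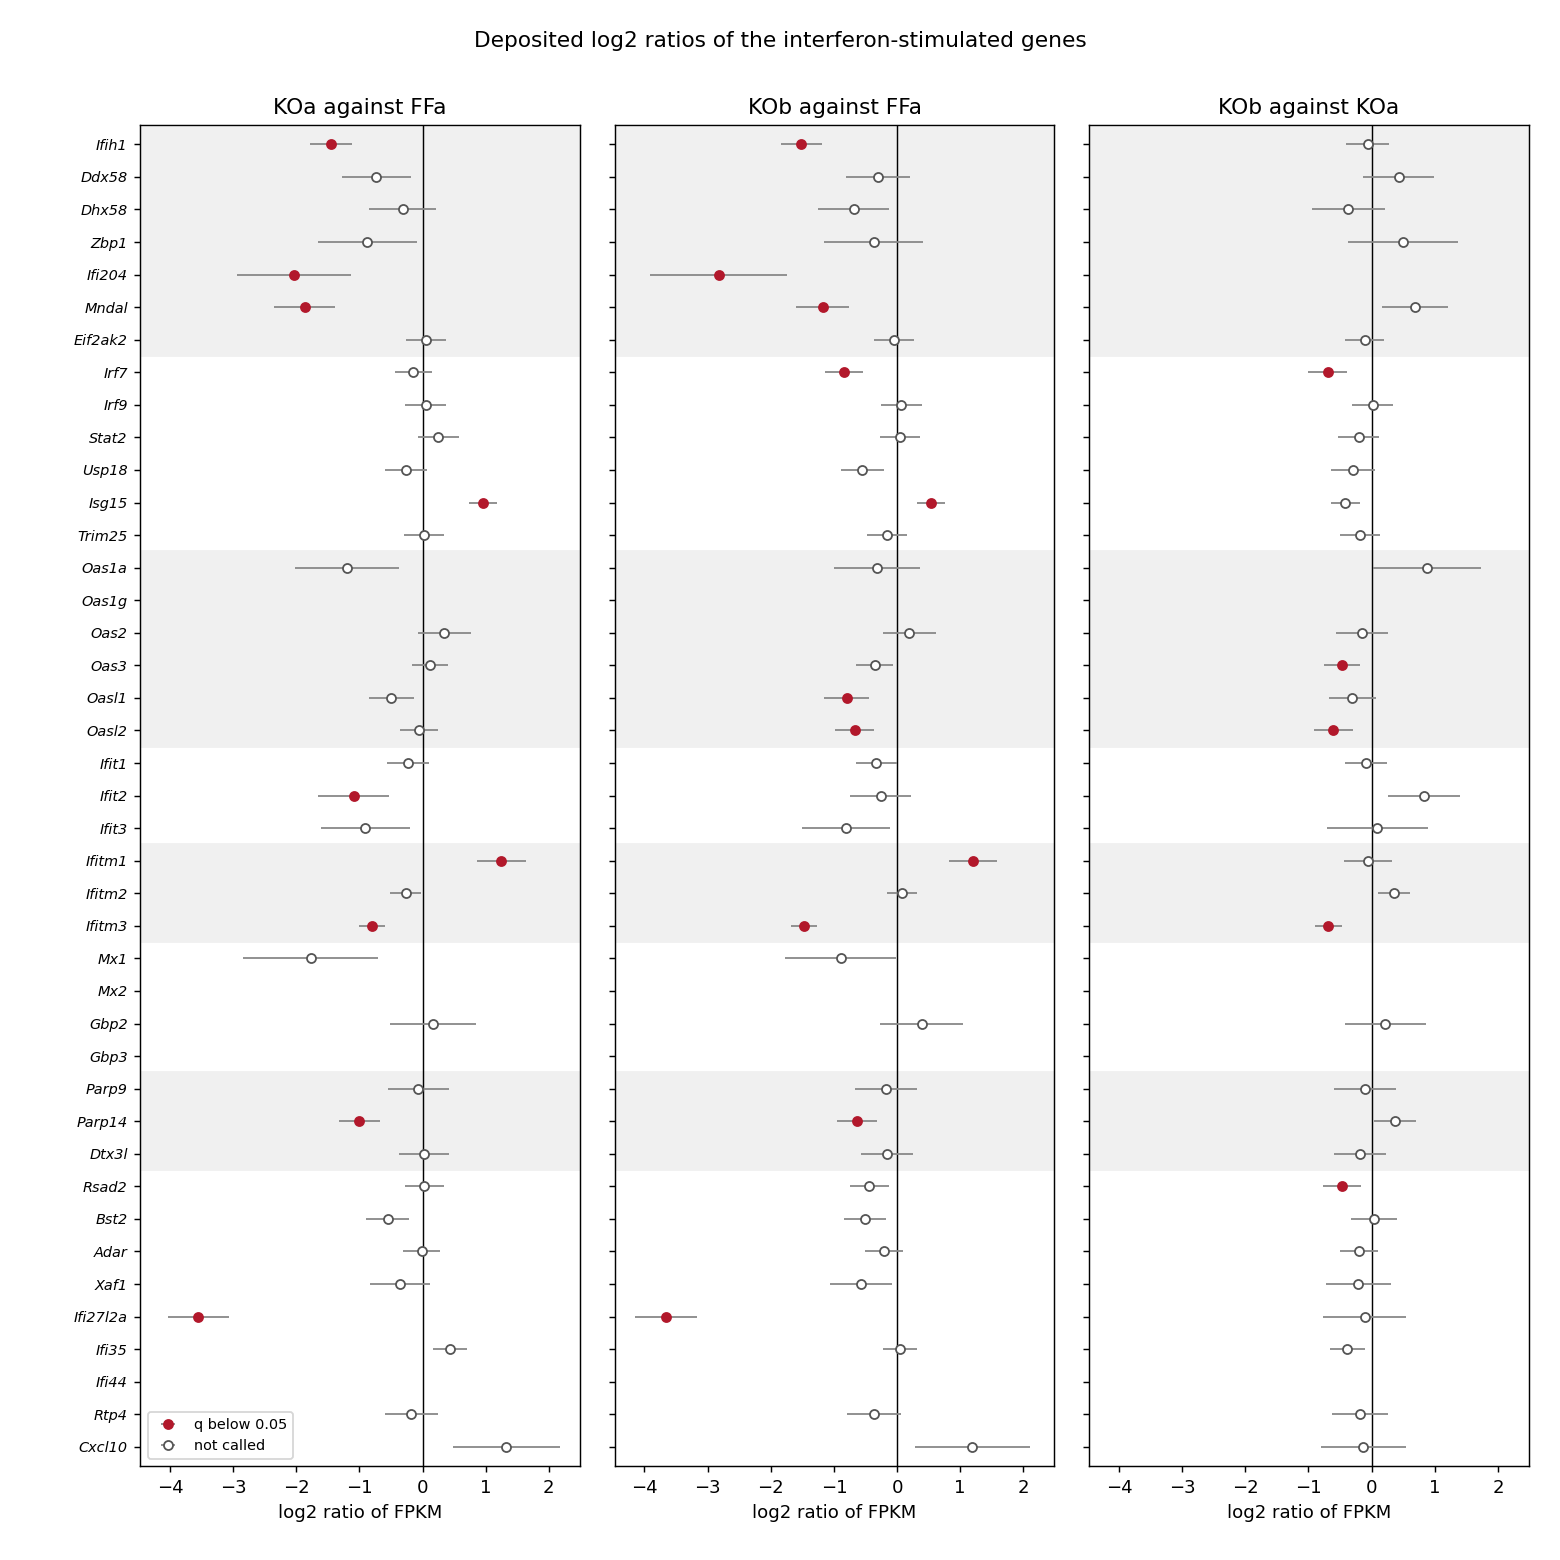
Deposited log2 ratios of the tested genes in the 3 comparisons (1 panel each, the same x axis), with bars for the standard error and filled red points for genes with q below 0.05; genes with no completed test have no point. Isg15 and Ifitm1 lie right of 0 and Ifi27l2a far left of it in both comparisons with FFa, and the 5 called genes of KOb against KOa lie left of 0. These sides were kept under both alternative scalings, whose shifts between the mutants (-0.05 and -0.03) were too small to turn those 5 genes.

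Among the nucleic acid sensors, 3 of 7 fell in both mutants (42.9%, against 14.1% and 15.2% of all tested genes). None rose, against 7.99% and 12.8%. Those that fell were the RNA sensor Ifih1 and both genes of the PYHIN family. Ifih1 encodes MDA5, the receptor for long double-stranded RNA (chr2:62595793-62646255, mm10), and was at 6.58, 2.41 and 2.30 FPKM. The mutants were close to each other and well below the control. It fell with log2 ratios of -1.45 ± 0.33 in KOa and -1.52 ± 0.33 in KOb. The q was 0.000619 for both, the smallest value found in the authors' deposited table, which 2570 results share.

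Mndal (chr1:173857220-173880187) was at 3.83, 1.05 and 1.69 FPKM and fell with log2 ratios of -1.86 ± 0.48 and -1.18 ± 0.42. Ifi204, its neighbour and paralog, which encodes a DNA sensor (chr1:173747294-173766919), was low throughout, at 0.839, 0.205 and 0.118 FPKM. Its log2 ratios of -2.03 ± 0.90 and -2.83 ± 1.08 had q values of 0.0264 and 0.0191 in the authors' deposited table and rest on a gene below 1 FPKM. Reads of these paralogs may be split between them.

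The other sensors were not called. Ddx58, which encodes the RNA sensor RIG-I, was at 0.676, 0.407 and 0.548 FPKM, and Dhx58, which encodes the regulatory helicase LGP2, at 1.19, 0.956 and 0.739. Zbp1, a sensor of Z-form nucleic acid, was at 1.98, 1.08 and 1.53. Eif2ak2, the gene of the double-stranded RNA-activated kinase PKR, was at 5.53, 5.77 and 5.35 FPKM, with log2 ratios of 0.06 ± 0.32 and -0.05 ± 0.32. Ifih1 had the highest level of these genes in FFa and lay below Eif2ak2 in both mutants.

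Of the genes that carry or damp the signal, Isg15 rose in both mutants and Irf7 fell in KOb. Isg15, a ubiquitin-like modifier that is attached to proteins and also secreted (chr4:156199424-156200818), was at 109, 211 and 158 FPKM. Both mutants were above the control, with KOa the highest. Its log2 ratio was 0.95 ± 0.23 in KOa (q = 0.000619 in the authors' deposited table) and 0.53 ± 0.23 in KOb (q = 0.0156), and between the mutants -0.42 ± 0.23 (q = 0.0592, not called).

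Irf7, the transcription factor that amplifies type I interferon production (chr7:141263183-141266424), was at 40.4, 36.5 and 22.5 FPKM. FFa and KOa lay close together and KOb below both. Its log2 ratio was -0.84 ± 0.30 in KOb against FFa and -0.70 ± 0.31 against KOa, and -0.15 ± 0.30 in KOa.

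Irf9 and Stat2, the members of the ISRE-binding complex among the 41 genes, had no call. Irf9 was at 8.39, 8.68 and 8.79 FPKM and Stat2 at 3.62, 4.31 and 3.73. Usp18, which removes ISG15 from proteins and blocks the interferon receptor, was at 6.17, 5.15 and 4.22 FPKM (q = 0.0589 in KOb in the authors' deposited table, not called). Trim25, a ubiquitin ligase that acts with RIG-I, was at 3.29, 3.34 and 2.94.

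The enzymes that attach ISG15 were chosen after their values were seen. Uba7, the activating enzyme gene, was at 26.9, 68.7 and 37.6 FPKM and rose with log2 ratios of 1.35 ± 0.28 and 0.48 ± 0.28, with KOa the highest group as for Isg15. Ube2l6, the conjugating enzyme gene, was at 362, 184 and 205 FPKM and fell, with log2 ratios of -0.97 ± 0.26 and -0.82 ± 0.26. Herc6, the ligase gene in the mouse, was not called, at 4.79, 5.41 and 4.74 FPKM. Uba7 and Ube2l6 kept these directions when scaled to equal sums of non-globin genes.

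In the IFITM family, small membrane proteins that block virus entry, neighbouring genes went opposite ways within 55.9 kb of chromosome 7. Ifitm3 (chr7:141009590-141010744) was at 244, 140.2 and 87.3 FPKM, the control highest and KOb lowest. It fell with log2 ratios of -0.80 ± 0.21 in KOa, -1.48 ± 0.21 in KOb and -0.68 ± 0.22 between the mutants (q = 0.00115 for the last in the authors' deposited table), and was the only 1 of the 41 genes called in all 3 comparisons. Ifitm1 (chr7:140967429-140969827) was at 10.98, 26.1 and 25.2 FPKM, higher in both mutants. It rose with log2 ratios of 1.25 ± 0.39 and 1.20 ± 0.38. Ifitm2 (chr7:140954839-140955961) was not called, at 27.0, 22.4 and 28.6 FPKM.

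The ratio of Ifitm3 to Ifitm1 within a group does not depend on scaling between groups. It was 22.2 in FFa, 5.38 in KOa and 3.47 in KOb, a value with no replicate error. Ifitm6, a gene of the same family outside the 41, was at 161, 77.1 and 83.3 FPKM and fell with log2 ratios of -1.06 ± 0.20 and -0.95 ± 0.19. In the promoters printed above, the ISRE core occurs in the windows of Ifitm3 and Ifitm2 and not in that of Ifitm1. The Ifitm1 window lies inside the deposited locus of that gene, so the bases before the deposited start were not searched. The summed levels of granulocyte and of monocyte and macrophage markers were lower in both mutants, as Ifitm3 and Ifitm6 were, and that of megakaryocyte markers was higher, as Ifitm1 and Isg15 were, with Mpo, Gp1bb and Vwf going against their lists as given above. The part of such cells in these results was not tested.

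The OAS family makes or resembles the synthetases that activate RNase L. Of 5 tested genes, 2 fell in KOb (40%, against 15.2% of all tested genes) and none in KOa (against 14.1%). Oas3 (chr5:120753098-120777659) was at 12.1, 13.1 and 9.50 FPKM. Its call was between the mutants, with a log2 ratio of -0.47 ± 0.29 (q = 0.0327 in the authors' deposited table). Oasl2 (chr5:114896934-114912245) was at 8.75, 8.39 and 5.50, with log2 ratios of -0.67 ± 0.31 in KOb against FFa and -0.61 ± 0.31 against KOa. KOb was the low group for both genes.

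Oasl1 (chr5:114923240-114937911) was at 4.68, 3.32 and 2.69 FPKM and fell in KOb, with log2 ratios of -0.49 ± 0.35 in KOa and -0.80 ± 0.36 in KOb. Oas2 was at 1.12, 1.43 and 1.29 and Oas1a at 0.829, 0.361 and 0.663, neither of them called. Oas1g, at 0.0882, 0.169 and 0.0490 FPKM, had no completed test. Oas1a and Oas1g are near-identical copies, so their values are uncertain.

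The IFIT genes, whose products bind foreign 5′ ends of RNA, lie within 99.3 kb of chromosome 19. In KOa 1 of 3 fell (33.3%, against 14.1% of all tested genes), and none in KOb (against 15.2%). Ifit1 was at 5.80, 4.94 and 4.63 FPKM and was not called. Ifit2 (chr19:34550694-34576534) was at 0.936, 0.439 and 0.781 FPKM and fell in KOa with a log2 ratio of -1.09 ± 0.56 (q = 0.0146 in the authors' deposited table), with KOb between the other groups. Ifit3, which has a close copy, was at 0.912, 0.487 and 0.518 and was not called.

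The GTPase genes among the 41 were below 1 FPKM in every group and had no call. Mx1, whose promoter drives the Cre transgene, was at 0.498, 0.146 and 0.268 FPKM, with a log2 ratio of -1.77 ± 1.07 in KOa (q = 0.0511 in the authors' deposited table). Mx2 was at 0.173, 0.261 and 0.300 FPKM with no completed test. RefSeq lists both as transcribed pseudogenes on this build, while GENCODE lists Mx1 as protein-coding. Gbp2 was at 0.554, 0.623 and 0.725 and Gbp3 at 0.289, 0.133 and 0.193, the latter with no completed test.

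Of the genes of ADP-ribosylation and ubiquitin, Parp14 fell in both mutants while its neighbours were not called. Parp14, an ADP-ribosyltransferase gene (chr16:35832878-35871382), was at 3.89, 1.95 and 2.51 FPKM, with log2 ratios of -1.0 ± 0.33 and -0.63 ± 0.32. Parp9 and Dtx3l, whose products form a complex, share 1 locus in the table, so reads may be split between them. Parp9 was at 5.16, 4.91 and 4.58 FPKM and Dtx3l at 4.53, 4.60 and 4.05.

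Among the remaining effectors, Ifi27l2a, the gene of a small hydrophobic protein (chr12:103442167-103443680), had the largest fall of the tested genes. It was at 25.9, 2.21 and 2.05 FPKM. The mutants stood at 8.51% and 7.91% of the control and were close to each other (-0.11 ± 0.66 on the log2 scale). Its log2 ratios to the control were -3.55 ± 0.48 and -3.66 ± 0.49. Its FPKM exceeded that of 94.6% of all genes in FFa and of 74.9% in KOa. Most dendritic and all B cell markers were lower in the mutants too. Log2 ratios were also below 0 for 14 of 14 monocyte and macrophage markers and 9 of 12 granulocyte markers in each mutant. The same held for 8 of 10 T and NK cell markers in KOa and 8 of 9 in KOb, while megakaryocyte markers went both ways. Of the dendritic cell markers, 7 of 8 tested in KOa and 8 of 9 in KOb had a log2 ratio below 0, and 1 in each was above 0. Among those that fell in both mutants, Siglech was at 1.70, 0.217 and 0.0680 FPKM, Irf8 at 7.16, 0.964 and 0.614 and the B cell marker Cd79a at 15.5, 0.906 and 1.74. The part of such cells in the falls of Ifi27l2a, Ifih1, Mndal, Ifi204 and Parp14 was not tested.

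Rsad2, the gene of the antiviral enzyme viperin (chr12:26442743-26456452), was at 202, 206 and 149 FPKM, above at least 98.8% of all genes in each group. FFa and KOa differed by less than the error (0.03 ± 0.31). It fell between the mutants (-0.47 ± 0.30, q = 0.0462 in the authors' deposited table), and this call was lost when p was adjusted within that comparison (q = 0.0633). The ratio of Isg15 to Rsad2 within a group was 0.539, 1.02 and 1.06.

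The other effectors were not called. Ifi35 (chr11:101448412-101458701) was at 21.3, 28.9 and 22.1 FPKM, and Bst2, the gene of the virus tether tetherin, at 9.0, 6.15 and 6.33. Adar, an RNA editing enzyme gene whose locus overlaps Chrnb2, was at 7.75, 7.68 and 6.71. Cxcl10, a chemokine gene whose locus in the table overlaps Cxcl11 and Art3, was at 0.630, 1.58 and 1.44, with log2 ratios of 1.32 ± 0.85 and 1.19 ± 0.91. Rtp4 was at 2.78, 2.46 and 2.17, the cell death gene Xaf1 at 1.41, 1.10 and 0.948, and Ifi44, with no completed test, at 0.248, 0.175 and 0.190.

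The genes lower in KOb than in KOa were thus Irf7, Ifitm3, Oasl2, Rsad2 and Oas3. Of the 35 tested genes, 24 had a log2 ratio below 0, against 4839 of 10468 tested genes in all. The gates differ here, and 6.19% of all tested genes fell. Of the erythroid markers, 11 of 11 had a log2 ratio below 0 and 4 fell (36.4%). Of the monocyte and macrophage markers, 12 of 12 were below 0 and 5 fell (41.7%). The part of either in these 5 genes was not tested.

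Other genes of the pathway, from lists, had calls in both directions, and their shares stand beside 7.99% higher and 14.1% lower among all tested genes in KOa and 12.8% and 15.2% in KOb. Of 34 further interferon-stimulated genes tested, 1 rose (2.94%) and 10 fell (29.4%) in KOa, and 1 rose (2.94%) and 13 fell (38.2%) in KOb. Their median log2 ratios were -0.28 and -0.44. Epsti1 fell with log2 ratios of -1.84 ± 0.54 and -1.97 ± 0.54, and Isg20, an exonuclease gene at 1461, 954 and 570.2 FPKM, with -0.62 ± 0.32 and -1.36 ± 0.31. Nmi fell in KOa (-1.21 ± 0.52) and Parp12 in KOb (-1.29 ± 0.43). Between the mutants, Uba7 (-0.87 ± 0.28) and Isg20 (-0.74 ± 0.31) fell and Lgals3bp rose (0.76 ± 0.30).

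Receptor and signalling genes rose in 1 of 9 (11.1%) in KOa, where none fell, while in KOb 3 were higher (33.3%) and 1 lower (11.1%), with median log2 ratios of -0.05 and -0.04. Il10rb, a chain shared by the interferon lambda and IL-10 receptors, rose with log2 ratios of 0.96 ± 0.30 and 0.66 ± 0.30. In KOb the type II receptor genes Ifngr1 (0.85 ± 0.29) and Ifngr2 (0.86 ± 0.45) rose, and the type I receptor gene Ifnar2 fell (-0.81 ± 0.35). Feedback genes rose in 1 of 7 (14.3%) in both mutants and fell in 4 (57.1%) in KOa and 2 (28.6%) in KOb, with medians of -0.49 and -0.45. Socs3, an inhibitor of JAK signalling at 0.254, 1.04 and 0.848 FPKM, rose (2.04 ± 0.76 and 1.74 ± 0.77), and the phosphatase gene Ptpn6 fell (-1.99 ± 0.36 and -1.13 ± 0.33).

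Genes that link nucleic acid sensing to interferon production fell in 6 of 12 tested (50%) in KOa and in 5 of 12 (41.7%) in KOb, and none rose. Their median log2 ratios were -1.21 and -0.89. Unc93b1, which carries nucleic acid-sensing Toll-like receptors to endosomes, had log2 ratios of -2.12 ± 0.34 and -2.38 ± 0.35. Irf5 had -2.18 ± 0.45 and -3.26 ± 0.57, and Tlr9 -2.35 ± 0.65 and -3.31 ± 0.83. These genes are known from B cells and dendritic cells, whose markers were mostly lower too, as were monocyte, macrophage and granulocyte markers. The part of such cells was not tested.

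Interferon-induced GTPase genes outside the 41 rose in 2 and fell in 2 of 9 tested (22.2% each) in KOa, and 1 was higher and 1 lower (11.1% each) in KOb, with medians of 0.02 and 0.18. Igtp, an immunity-related GTPase gene, was at 8.09, 24.8 and 16.8 FPKM and rose with log2 ratios of 1.62 ± 0.30 and 1.06 ± 0.30. Irgm2 rose in KOa (1.07 ± 0.43). Of 13 MHC class I presentation genes, 2 rose and 2 fell in KOa (15.4% each), a share of falls near that of all tested genes. In KOb 3 were higher (23.1%) and 1 lower (7.69%), and the medians were 0.15 and 0.29. The proteasome activator genes Psme1 (0.77 ± 0.25 and 0.70 ± 0.25) and Psme2 (0.68 ± 0.38 and 0.95 ± 0.38) rose, and the immunoproteasome gene Psmb8 fell (-1.65 ± 0.43 and -1.07 ± 0.38). Scaling to equal sums of non-globin genes turned none of the directions of the companion genes named here. It shrank their falls against FFa, and its shift in KOa (0.54) is close to the fall of Isg20 there (-0.62 ± 0.32). Among all called genes of these lists it turned Pias1 in KOa and Ogfr in KOb.

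**Figure D4:**
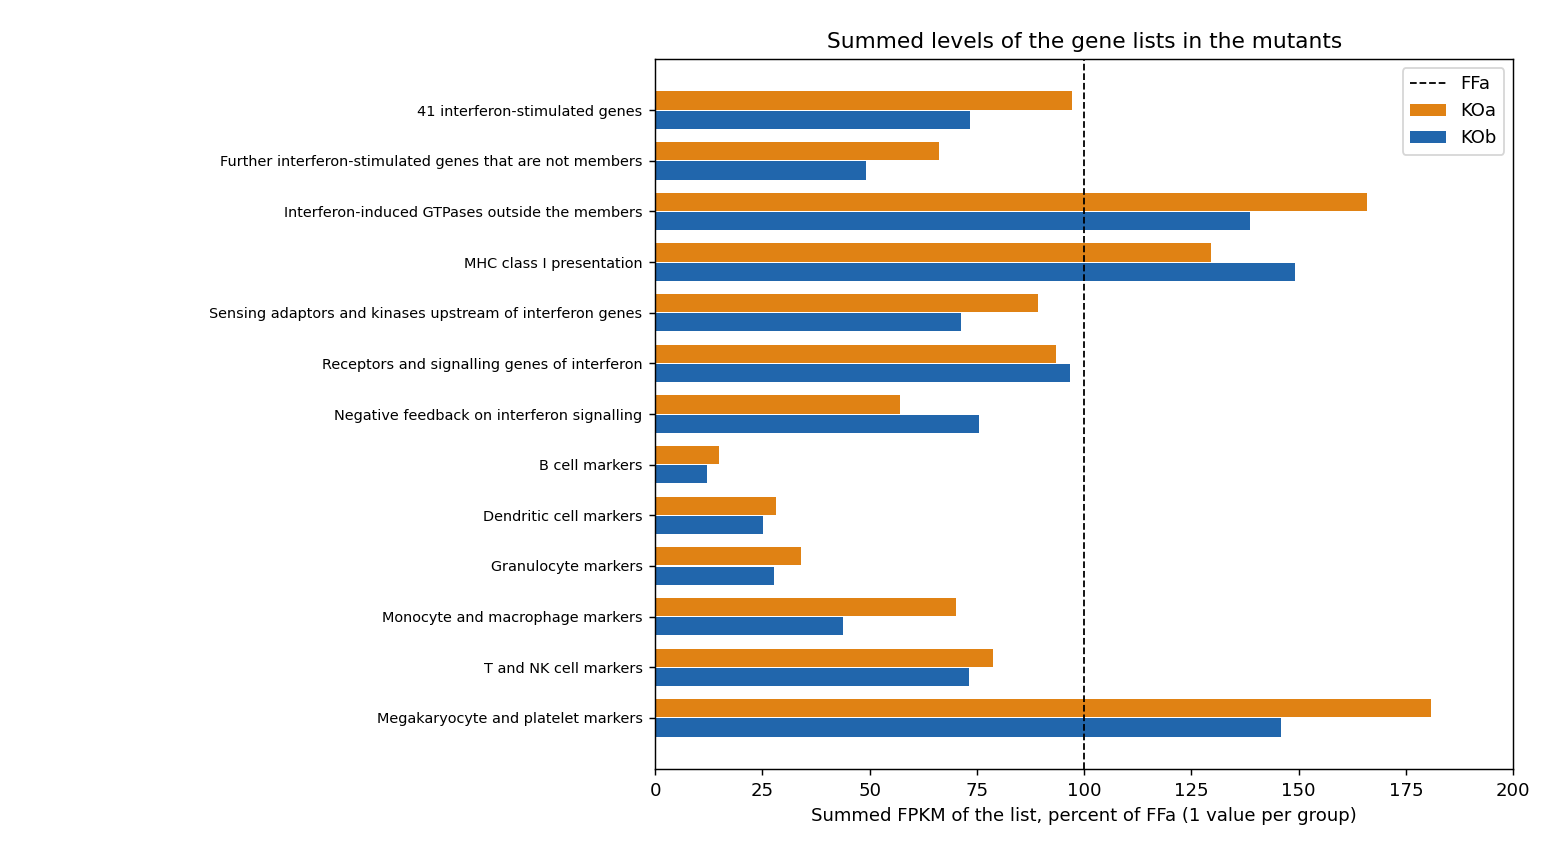
Summed FPKM of each gene list in KOa and KOb as a percent of FFa (dashed line at 100), 1 bar per group with no error bars; a sum is led by the most abundant genes of its list. The 41 interferon-stimulated genes sum to 97.1% of FFa in KOa and 73.3% in KOb, B cell markers to 14.9% and 12.1%, and interferon-induced GTPases to 166.0% and 138.6%.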

How the data were processed

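Column-purified, DNase-treated RNA was used for NuGEN Encore Complete libraries, per the labels' protocols. Reads were processed with TopHat2 2.0.8b, Bowtie2 2.1.0 and Cuffdiff 2.1.1 on mm10, per the submitters' processing notes. Annotation, scaling and strand use: not given in the sources used here.

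One table was deposited, in which the authors give FPKM per gene and group, with the 3 libraries of a group combined. The log2 ratio, the test statistic (a score), the p-value and the q-value are the authors' deposited values too. Depth per library is unknown, so no interval, SD or detection floor is given. The p-values come from the error model of Cuffdiff, and the spread between libraries that enters it may be technical. Recomputed, the deposited q equals the Benjamini-Hochberg adjustment over 31813 tested results (largest difference 5.27e-07). Table starts count from 0 and are printed counting from 1. A few genes of the companion and marker lists are counted but not reported here by name.

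The 41 genes, the companion lists and the alternatives were chosen with earlier results of these data known. All 41 may be named; of each companion list, up to 3 called genes of largest change with an FPKM of at least 1, or else 2 of the highest mean FPKM. Python 3.11.15, pandas 2.3.3 and scipy 1.17.1 were used, and the calculations were tested on simulated data.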

Additional observations from a re-analysis of the deposited data

Results flagged for a closer look

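Of the 41 genes, 5 differed between the mutant groups by the authors' test of KOb against KOa, which tests the difference between their effects against the shared control. The log2 ratio was -0.70 for Irf7, -0.68 for Ifitm3, -0.61 for Oasl2, -0.47 for Rsad2 and -0.47 for Oas3, each lower in KOb. Of these 5, Ifitm3 passed when the statistic was taken as standard normal and the other 4 did not.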

How the results depend on the processing

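No paired analysis was possible because the deposited table holds 1 value per gene and group, so the replicate number could not be used as a block and no library could be left out. All 25 calls kept their direction under both scalings, which add a constant to every log2 ratio of a comparison and leave the calls untested. Of the 25 calls, 24 were kept with p adjusted within each comparison, 19 at a q below 0.01 and 12 with the statistic taken as standard normal. That last reading left 1 of 37 genes higher and 3 lower in KOb against FFa, beside 3.63% and 5.92% of all tested genes. In KOb against KOa it left 1 of 35 lower, beside 0.79%. A q below 0.01 left 1 higher in KOb against FFa and 3 lower in KOb against KOa. The share of all tested genes at that q was not counted. Among genes of at least 5 FPKM in a group, 3 of 18 tested were lower in KOa and 5 of 18 in KOb. The share of all genes of that level was not counted. The median log2 ratio at that level was -0.0656 in KOa and -0.34 between the mutants. At 1 FPKM or more it was -0.11 in KOa. With equal sums of non-globin genes it was 0.30 in KOa and 0.16 in KOb, a shift that all tested genes share. Over log2(FPKM + 1) of all 41 genes it was -0.18 in KOb. The causes were not tested, beyond the fewer genes that a minimum leaves.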

Other observations

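None of the 10 interferon genes in the table had a completed test. Of these, 8 were listed at 0 in FFa, 3 in KOa and 7 in KOb. Ifnb1 was listed at 0 in FFa and at 0.0952 and 0.0840 FPKM in KOa and KOb. Ifna1 was listed at 0.346 FPKM in KOa and at 0 in FFa and KOb. Alpha interferon genes are near-identical copies, so these values are uncertain.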
